A study of Mus musculus with 14 samples.

Results

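The 9 genes described here encode the transporters through which enterocytes, the absorptive cells of the small intestine, take up the products of protein digestion: Slc15a1, Slc6a19, Slc7a9, Slc3a1, Slc1a1, Slc6a20a, Slc7a7, Slc7a8 and Slc36a1. They were chosen by gene symbol for this known role, with earlier results of these data known. Shares of all tested genes set beside counts of transporters are therefore a description. All 9 were found among the 18781 genes of the deposited table. RNA was measured in small intestinal mouse organoids, which are crypt-derived epithelial cultures, from 4 genotypes with 4 WT, 4 Atg16l1ΔIEC, 2 Rnaseh2bΔIEC and 4 Atg16l1/Rnaseh2bΔIEC libraries. WT organoids carried floxed Atg16l1 and Rnaseh2b alleles and no Cre recombinase. The knockout organoids carried the floxed alleles of Atg16l1, of Rnaseh2b or of both, together with a heterozygous Villin-Cre transgene, which is driven by an epithelial promoter. All cultures were grown in IntestiCult medium without further treatment, and the age of the donor mice is not given for these libraries. Atg16l1 is a core component of the autophagy machinery, and Rnaseh2b encodes a subunit of RNase H2, which removes ribonucleotides from DNA. The question addressed was how the loss of each gene, alone and combined, changed the RNA level of the transporters.

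Dietary protein reaches the enterocyte as di- and tripeptides and as free amino acids. At the brush border, PEPT1 (Slc15a1) carries peptides together with protons, B0AT1 (Slc6a19) carries neutral amino acids with sodium, SIT1 (Slc6a20a) carries proline, EAAT3 (Slc1a1) carries glutamate and aspartate, and PAT1 (Slc36a1) carries small amino acids with protons. The exchanger b0,+AT (Slc7a9) takes up cystine and cationic amino acids only as a heterodimer with rBAT (Slc3a1). At the basolateral side, y+LAT1 (Slc7a7) and LAT2 (Slc7a8) pass amino acids towards the blood as heterodimers with 4F2hc (Slc3a2).

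The deposited values are gene counts that the authors normalised and put on a log2 scale by a transformation that is not named, so a difference of 1 is a change by a factor of 2. Read totals cannot be taken from them, the depth per library is unknown, and changes of low genes may be understated on this scale. Of all genes, 12802 had a mean of at least 10 on the linear scale and were tested with limma, with Benjamini-Hochberg adjustment over all of them and a threshold of 0.05. All 9 transporters were among those tested. The sources do not say whether libraries came from separate mice, so p-values measure the spread between these libraries, which may be technical. In the genotypes with 4 libraries, libraries 1 and 2 deviated together from the genotype mean, as did libraries 3 and 4. Each such pair was of the same sex by Xist and the Y-linked gene Ddx3y. The 2 Rnaseh2bΔIEC libraries cannot be examined in this way, because 2 values always deviate in opposite directions from their own mean. Both Rnaseh2bΔIEC libraries were male, whereas the other 3 genotypes each had 2 male and 2 female libraries. By the library names, WT libraries were in sequencing lane 1, Atg16l1ΔIEC and Rnaseh2bΔIEC libraries in lane 2, and the Atg16l1/Rnaseh2bΔIEC libraries in both, with libraries 1 and 2 (male) in lane 2 and libraries 3 and 4 (female) in lane 1. WT organoids had a mean Rnaseh2b value of 8.54 ± 0.13 (SD over 4 libraries), which compared with 7.18 ± 0.04 (2 libraries) after deletion of Rnaseh2b and 7.81 ± 0.10 (4 libraries) after that of both genes. Atg16l1 fell from 9.46 ± 0.05 (4 libraries) to 6.92 ± 0.29 when it alone was deleted and to 8.39 ± 0.19 when both were (4 libraries each), so transcript of both targeted genes was present after deletion and was higher in the combined knockout than in each alone. Of 11 stromal, endothelial and immune markers only 3 could be tested, and Col1a1, Col1a2, Pdgfra, Acta2, Ptprc and Cd3e were below the floor, while all 11 enterocyte markers were above it.

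The stretches of 250 bases before the RefSeq transcription start (GRCm38.p6) are shown for 4 transporters because the results turn on them: Slc15a1 and Slc6a19 had the largest differences between genotypes among the 9, and Slc7a9 and Slc3a1 encode the partners of 1 heterodimer. RefSeq promoters were found for all 9 transporters, 14 in total. They were searched on both strands for 6 motifs, chosen after the expression values were known: CAAAGTNCA for HNF4, GTTAATNAT for HNF1, TTTATNG for the CDX factors, AGATAA for the zinc finger factors of the GATA family, GGGCGG for the so-called GC box and TATAAA for the TATA box. Capitals mark a match, and lower case letters the rest.
Slc15a1, minus strand, chr14:121505255-121505504: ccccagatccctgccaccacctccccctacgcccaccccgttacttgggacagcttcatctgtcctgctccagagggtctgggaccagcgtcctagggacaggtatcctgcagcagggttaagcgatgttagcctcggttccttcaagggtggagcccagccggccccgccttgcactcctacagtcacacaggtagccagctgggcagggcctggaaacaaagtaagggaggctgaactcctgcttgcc
Slc6a19, minus strand, chr13:73692637-73692886: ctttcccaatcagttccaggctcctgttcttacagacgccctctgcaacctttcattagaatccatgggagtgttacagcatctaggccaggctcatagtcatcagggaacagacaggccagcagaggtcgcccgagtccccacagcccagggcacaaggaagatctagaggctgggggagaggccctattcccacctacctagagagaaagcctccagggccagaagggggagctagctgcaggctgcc
Slc7a9, plus strand, chr7:35448842-35449091: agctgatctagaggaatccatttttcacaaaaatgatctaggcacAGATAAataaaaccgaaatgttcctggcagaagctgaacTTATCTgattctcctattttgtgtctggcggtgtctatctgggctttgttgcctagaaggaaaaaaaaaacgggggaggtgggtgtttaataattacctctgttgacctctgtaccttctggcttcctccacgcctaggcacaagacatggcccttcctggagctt
Slc3a1, plus strand, chr17:85028097-85028346: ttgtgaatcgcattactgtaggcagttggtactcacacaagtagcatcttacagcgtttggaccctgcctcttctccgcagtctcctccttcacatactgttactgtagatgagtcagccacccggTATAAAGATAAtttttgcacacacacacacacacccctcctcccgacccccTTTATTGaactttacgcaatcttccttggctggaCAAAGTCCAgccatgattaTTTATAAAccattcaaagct
The Slc3a1 stretch held a match to HNF4 from 39 to 31 bases before the start, to CDX from 73 to 67, to GATA from 119 to 114 and to the TATA box at 3 places, of which a pair overlap from 20 to 13 bases before the start and another shares 1 base with the GATA match. The Slc7a9 stretch held GATA letters from 205 to 200 and, on the opposite strand, from 166 to 161 bases before the start. Another RefSeq promoter of Slc7a9, chr7:35448929-35449178, is not shown and held none of the 6 motifs. None of the 6 motifs was found in the Slc15a1 and Slc6a19 stretches. The Slc6a19 and Slc7a9 stretches lie inside the annotated spans of their genes that are given below, so these RefSeq starts differ from the annotated gene starts. Over the 32851 RefSeq promoters of the same length, 1.19% held the HNF4, 0.737% the HNF1, 9.81% the CDX, 9.99% the GATA, 32.7% the GC box and 12.4% the TATA letters. Of the 14 transporter promoters, the HNF4, CDX and TATA letters were each found in 1, the GATA letters in 4, the GC box in 5 and the HNF1 letters in 0. Counted by gene, which is not the unit of the shares above, the HNF4, CDX and TATA letters were found for 1 (Slc3a1) and the GATA letters for 3 (Slc3a1, Slc7a9 and Slc7a7). The GC box was found for 4 (Slc6a20a, Slc7a7, Slc7a8 and Slc1a1) and the HNF1 letters for 0. The Slc7a7 matches lay in overlapping promoters of that gene. A match of letters is a description of the sequence and not evidence of binding.

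In WT organoids the log2 level per kilobase of exon ranged over the 9 transporters from 10.67 ± 0.14 (SD, n = 4) for Slc3a1 to 5.63 ± 0.24 (SD, n = 4) for Slc6a20a. Between them followed Slc7a7 at 9.20, Slc7a9 at 8.67, Slc7a8 at 8.19, Slc6a19 at 7.81, Slc1a1 at 6.84, Slc36a1 at 6.74 and Slc15a1 at 5.67. The order was clear down to Slc6a19, because the libraries of these neighbours did not overlap, but Slc1a1 and Slc36a1 overlapped, as did Slc15a1 and Slc6a20a. In Rnaseh2bΔIEC organoids the order differed, with Slc6a19 at 9.21 per kilobase in both libraries above Slc7a8 at 8.61 ± 0.03 (SD, n = 2), and Slc15a1 at 7.10 ± 0.08 (SD, n = 2) above Slc36a1 at 6.82 ± 0.02 (SD, n = 2). The rBAT gene Slc3a1 and the basolateral exchanger Slc7a7 ranked highest in all 4 genotypes, in that order.

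**Figure D1:**
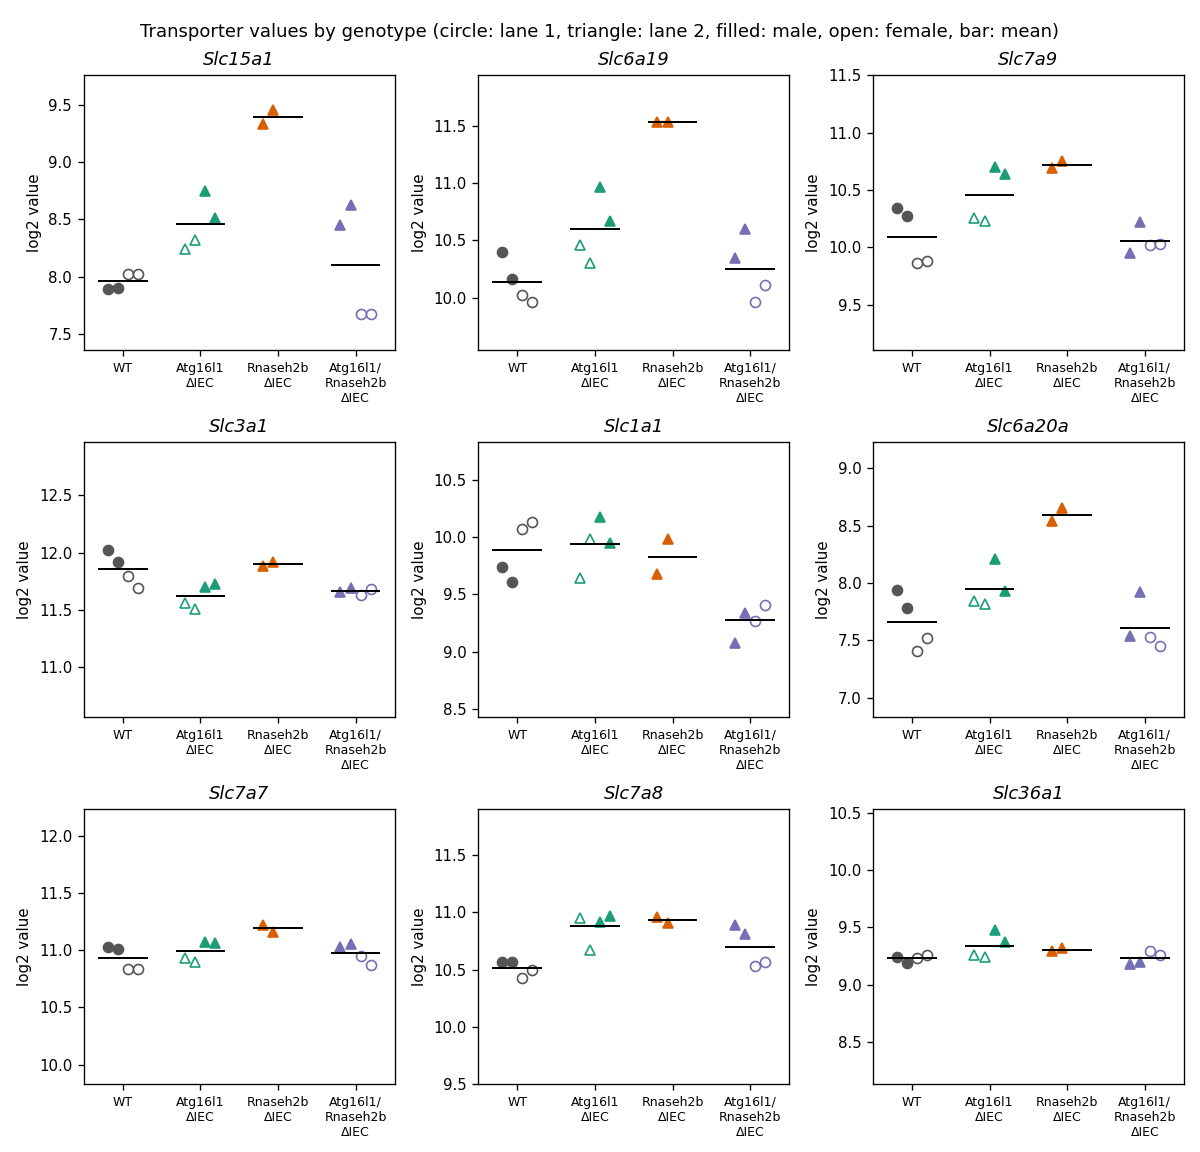
Log2 value of each transporter in every library, by genotype, with a separate axis range of equal height for each gene; circles are lane 1 and triangles lane 2, filled symbols are male and open symbols female libraries, and the bar is the mean. Both Rnaseh2bΔIEC libraries of Slc15a1, at 9.33 and 9.45, and of Slc6a19, at 11.53, lay above every other library, while those of Slc3a1 and Slc1a1 lay among the WT libraries.

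In Rnaseh2bΔIEC organoids, 6 of the 9 transporters were higher than in WT organoids and 0 were lower, against 14.4% of all tested genes that were higher. The 6 were the brush border carriers Slc15a1, Slc6a19, Slc6a20a and Slc7a9 and the basolateral exchangers Slc7a7 and Slc7a8. The glutamate carrier Slc1a1, the heterodimer partner Slc3a1 and the proton-coupled Slc36a1 did not pass the threshold. The median difference was 0.42 over the transporters and 0.00 over all tested genes. In bulk RNA such as this, a higher share of enterocytes and more RNA per enterocyte cannot be told apart.

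The peptide carrier Slc15a1 (ENSMUSG00000025557, GRCm38 chromosome 14, 121459621 to 121505252, minus strand) had log2 values of 7.89, 7.90, 8.02 and 8.02 in WT and of 9.33 and 9.45 in Rnaseh2bΔIEC organoids. The groups did not overlap, and the difference of 1.43 (95% interval 0.93 to 1.94, limma adjusted p = 0.001) corresponds to a 2.7-fold higher level. The gene lies on the same chromosome as Rnaseh2b, 59.1 Mb away.

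The neutral amino acid carrier Slc6a19 (ENSMUSG00000021565, chromosome 13, 73679745 to 73704865, minus strand) had values of 10.40, 10.16, 10.02 and 9.96 in WT and of 11.53 in each Rnaseh2bΔIEC library. Again the groups were apart, with a difference of 1.40 (95% interval 1.0 to 1.80, limma adjusted p = 0.00028), or 2.63-fold. The proline carrier Slc6a20a (ENSMUSG00000036814, chromosome 9, 123634770 to 123678885, minus strand) had values of 7.94, 7.78, 7.41 and 7.52 in WT and of 8.54 and 8.65 in Rnaseh2bΔIEC organoids. It was 0.93 higher (95% interval 0.60 to 1.27, limma adjusted p = 0.0012), or 1.91-fold, and every Rnaseh2bΔIEC library was above every WT library.

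Of the partners of the cystine exchanger, Slc7a9 passed the threshold and Slc3a1 did not, and the test of the difference between them, given further on, did not pass (adjusted p = 0.083, exact permutation). Slc7a9 (ENSMUSG00000030492, chromosome 7, 35448796 to 35466036, plus strand) had values of 10.34, 10.27, 9.86 and 9.88 in WT and of 10.69 and 10.75 in Rnaseh2bΔIEC organoids, a difference of 0.63 (95% interval 0.29 to 0.97, limma adjusted p = 0.01). Slc3a1 (ENSMUSG00000024131, chromosome 17, 85028376 to 85064236, plus strand) had values of 12.02, 11.92, 11.80 and 11.69 in WT and of 11.88 and 11.92 in Rnaseh2bΔIEC organoids. The Rnaseh2bΔIEC values of Slc3a1 lay within the WT range, and the difference was 0.04 (95% interval -0.13 to 0.21, limma adjusted p = 0.73).

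The basolateral exchangers were higher by smaller amounts. Slc7a8 (ENSMUSG00000022180, chromosome 14, 54722209 to 54781946, minus strand) had values of 10.57, 10.57, 10.43 and 10.50 in WT and of 10.96 and 10.91 in Rnaseh2bΔIEC organoids, with a difference of 0.42 (95% interval 0.20 to 0.64, limma adjusted p = 0.0086). Slc7a7 (ENSMUSG00000000958, chromosome 14, 54369442 to 54417780, minus strand) had values of 11.03, 11.01, 10.84 and 10.84 in WT and of 11.22 and 11.16 in Rnaseh2bΔIEC organoids, with a difference of 0.26 (95% interval 0.11 to 0.41, limma adjusted p = 0.016). Neither gene's groups overlapped, and both genes lie on the chromosome of Rnaseh2b, at 7.51 Mb and 7.87 Mb from it.

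The glutamate carrier Slc1a1 (ENSMUSG00000024935, chromosome 19, 28835049 to 28913960, plus strand) had values of 9.74, 9.61, 10.07 and 10.13 in WT and of 9.68 and 9.98 in Rnaseh2bΔIEC organoids. The groups overlapped, with a difference of -0.05 (95% interval -0.40 to 0.29, limma adjusted p = 0.83). For Slc36a1 (ENSMUSG00000020261, chromosome 11, 55204350 to 55236330, plus strand) the values were 9.24, 9.19, 9.23 and 9.26 in WT and 9.29 and 9.32 in Rnaseh2bΔIEC organoids. Its difference of 0.08 (95% interval -0.05 to 0.21, limma adjusted p = 0.36) did not pass the threshold although the groups were apart.

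In this comparison enterocyte markers as a group moved with the transporters. For the marker counts that follow, 1848 of all 12802 tested genes were higher and 1576 lower in Rnaseh2bΔIEC than in WT organoids. Of the 11 markers, which include Fabp1, Apoa4 and Sis, 10 were higher in Rnaseh2bΔIEC than in WT organoids with a median difference of 1.22, and their summed linear level was 181000 to 277000 in WT and 387000 to 424000 in Rnaseh2bΔIEC libraries. The 6 stem cell markers summed to 25600 to 29000 in WT and 19900 to 20600 in Rnaseh2bΔIEC libraries, with 2 of them lower and 0 higher. Of the other lists, 3 of 6 goblet, 3 of 4 tuft, 1 of 6 proliferation and 1 of 3 jejunal or duodenal markers were lower, 2 of 4 ileal markers were higher, and 0 of 6 Paneth and 0 of 6 enteroendocrine markers passed. The part of these shifts in the transporter differences was not tested. When lane was a covariate, which only the Atg16l1/Rnaseh2bΔIEC libraries can estimate, 2 of the 6 calls were kept against 6.19% of all tested genes that were higher, Slc6a19 at 0.96 and Slc15a1 at 0.56, and the other 4 had limma adjusted p-values of 0.065 to 0.49. Among male libraries alone, where each genotype is 1 pair and the spread is that within pairs, all 6 calls were kept against 19.7% of all tested genes that were higher, with Slc15a1 at 1.50 and Slc6a19 at 1.25, while the median of the enterocyte markers was 0.64. In this fit WT was in lane 1 and Rnaseh2bΔIEC in lane 2, so lane and genotype cannot be told apart. With the average of each pair as the unit, Rnaseh2bΔIEC organoids had only 1 value, and the 6 calls were not kept. Without either Rnaseh2bΔIEC library, the lone library being assumed to vary like the other genotypes, the calls of Slc7a7, Slc7a8 and Slc7a9 were lost. Fewer of all tested genes were called in these fits too.

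**Figure D2:**
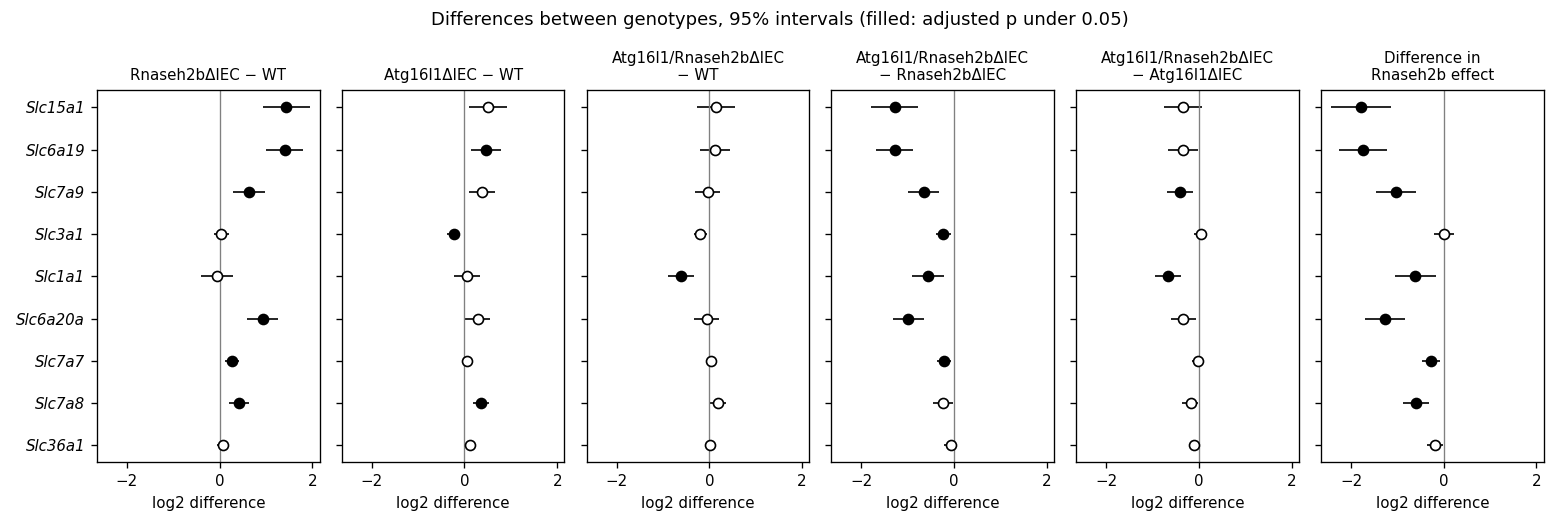
Log2 difference of each transporter (points) with its 95% interval (bars) in 5 comparisons of genotypes and, in the last panel, the Rnaseh2b effect with Atg16l1 deleted minus that without; filled points passed an adjusted p of 0.05. Slc15a1 and Slc6a19 were 1.43 and 1.40 above WT in Rnaseh2bΔIEC organoids and, in Atg16l1/Rnaseh2bΔIEC organoids, both differed from Rnaseh2bΔIEC organoids by -1.28.

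Atg16l1ΔIEC organoids were compared with the same WT libraries. In Atg16l1ΔIEC organoids 2 of the 9 transporters were higher, against 8.73% of all tested genes, and 1 was lower, against 10.4%. Slc6a19 had values of 10.46, 10.30, 10.97 and 10.67, of which 3 were above all WT libraries, and was 0.46 higher (95% interval 0.14 to 0.79, limma adjusted p = 0.047). Slc7a8 had values of 10.95, 10.67, 10.92 and 10.97, all above the WT libraries, and was 0.36 higher (95% interval 0.19 to 0.54, limma adjusted p = 0.0085). Slc3a1 had values of 11.56, 11.51, 11.70 and 11.73, of which 2 were within the WT range, and was lower with a difference of -0.23 (95% interval -0.37 to -0.10, limma adjusted p = 0.022).

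The peptide carrier Slc15a1 had values of 8.24, 8.32, 8.75 and 8.51 in Atg16l1ΔIEC organoids, all above the WT libraries, but its difference of 0.50 (95% interval 0.09 to 0.91, limma adjusted p = 0.081) did not pass the threshold. For Slc7a9 the values were 10.26, 10.23, 10.70 and 10.64 and the difference was 0.37 (limma adjusted p = 0.057). Both had higher values in the male libraries 3 and 4 than in the female libraries 1 and 2. Slc6a20a, Slc36a1, Slc7a7 and Slc1a1 had differences of 0.29, 0.11, 0.06 and 0.05, with limma adjusted p-values of 0.13 to 0.81. All 6 stem cell markers were lower in Atg16l1ΔIEC than in WT organoids and 3 of the 6 goblet cell markers were lower. Of the 11 enterocyte markers 1 was called higher, while all 11 had positive differences with a median of 0.29, the same as the median of 0.29 over the transporters. The part of these markers was not tested. With lane as a covariate 0 of the 3 calls were kept by limma and Slc15a1 had a difference of -0.37 (adjusted p = 0.14). With sex as a covariate 5 transporters were higher and 1 lower, against 12.5% and 13.8% of all tested genes, with Slc15a1, Slc7a9 and Slc6a20a in addition. With sex and lane together Slc6a19 (0.39), Slc7a8 (0.19) and Slc3a1 (-0.05) did not pass (limma adjusted p = 0.074, 0.16 and 0.57). Slc7a9 (0.75) and Slc36a1 (0.27) were higher in that fit (limma adjusted p = 0.00023 and 0.036). Library pairs as a random effect kept 0 of the 3 calls, and that of Slc6a19 was lost in 16 of 28 alternative fits.

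In Atg16l1/Rnaseh2bΔIEC organoids the glutamate carrier Slc1a1 alone passed the threshold against WT, being lower, against 8.01% of all tested genes. Its values were 9.08, 9.34, 9.27 and 9.41, all below the WT libraries, and the difference was -0.61 (95% interval -0.90 to -0.33, limma adjusted p = 0.0094), or 0.654-fold. Slc3a1, at 11.66, 11.69, 11.63 and 11.68, had a difference of -0.19 (95% interval -0.33 to -0.05, limma adjusted p = 0.056). Slc7a8, at 10.89, 10.81, 10.53 and 10.57, had one of 0.18 (95% interval 0.01 to 0.36, limma adjusted p = 0.14).

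Slc15a1 in Atg16l1/Rnaseh2bΔIEC organoids had values of 8.45 and 8.62 in libraries 1 and 2 and of 7.67 in libraries 3 and 4. The former were above and the latter below all WT libraries, and the mean difference from WT was 0.15 (95% interval -0.26 to 0.56, limma adjusted p = 0.62). Within lane 1 alone, libraries 3 and 4 (female) against WT gave -0.28 (limma adjusted p = 0.032, or 0.12 with the spread of all genotypes), and libraries 1 and 2 (male, lane 2) against WT gave 0.58 (limma adjusted p = 0.0026). Slc6a19 was at 10.35, 10.60, 9.96 and 10.11, with a difference of 0.12 (95% interval -0.21 to 0.44, limma adjusted p = 0.62). Slc7a9, Slc6a20a, Slc7a7 and Slc36a1 had differences of -0.03, -0.05, 0.04 and 0.01 (limma adjusted p = 0.63 to 0.96). For Slc1a1 the difference within lane 1 was -0.55 and did not pass the threshold (limma adjusted p = 0.062), and with library pairs as a random effect the difference of -0.61 did not pass either (limma adjusted p = 0.15). Among male libraries alone Slc1a1 (-0.47), Slc3a1 (-0.30) and Slc7a9 (-0.22) were lower and Slc15a1 (0.65) and Slc7a8 (0.28) higher, against 21.5% and 20.3% of all tested genes. The male WT libraries are in lane 1 and the male Atg16l1/Rnaseh2bΔIEC libraries in lane 2. Over all libraries, the 6 Paneth cell markers summed to 44900 to 59400 in Atg16l1/Rnaseh2bΔIEC and to 31800 to 34600 in WT organoids. Of these markers 4 were higher, beside 1037 of all 12802 tested genes. Of the 11 enterocyte markers 1 was higher and 1 lower, with a median difference of -0.28, beside 0.01 over the transporters. They summed to 151000 to 227000 in Atg16l1/Rnaseh2bΔIEC and to 181000 to 277000 in WT libraries. The part of all these markers was not tested.

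Between Atg16l1/Rnaseh2bΔIEC and Rnaseh2bΔIEC organoids, 7 of the 9 transporters were lower in the former and 0 higher, against 14.4% of all tested genes that were lower. Slc15a1 and Slc6a19 each had a difference of -1.28 (95% intervals -1.79 to -0.78 and -1.68 to -0.88, limma adjusted p = 0.0023 and 0.00069), or 0.411-fold and 0.412-fold. No Atg16l1/Rnaseh2bΔIEC library of either gene reached the lower Rnaseh2bΔIEC library, the nearest being 8.62 against 9.33 for Slc15a1 and 10.60 against 11.53 for Slc6a19. Slc6a20a, at 7.54, 7.92, 7.53 and 7.45, was also below both Rnaseh2bΔIEC libraries, with a difference of -0.99 (95% interval -1.32 to -0.65, limma adjusted p = 0.0011). Slc7a9, at 9.95, 10.22, 10.02 and 10.03, had a difference of -0.66 (95% interval -1.0 to -0.33, limma adjusted p = 0.0088).

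The glutamate carrier Slc1a1, which did not differ between Rnaseh2bΔIEC and WT organoids beyond the threshold, was lower than in Rnaseh2bΔIEC organoids, with a difference of -0.56 (95% interval -0.90 to -0.21, limma adjusted p = 0.022). Slc3a1 and Slc7a7 were lower with differences of -0.23 and -0.22 (limma adjusted p = 0.043 and 0.038), calls that were lost in 16 and 11 of 31 alternative fits. Slc7a8 at -0.24 (limma adjusted p = 0.097) and Slc36a1 at -0.07 (limma adjusted p = 0.39) did not pass. Of the enterocyte markers, 9 of 11 were lower with a median difference of -1.15, and their summed level was 151000 to 227000 in Atg16l1/Rnaseh2bΔIEC libraries. All 6 goblet cell markers were higher, summing to 69500 to 79900 against 37400 to 41400, and the part of these shifts was not tested. Of all 12802 tested genes, 14.4% were lower and 1417 genes higher in this comparison. Without Rnaseh2bΔIEC library 1 or 2 the lone library is assumed to vary like the other genotypes. The calls of Slc3a1, Slc7a7 and Slc7a9 were then lost, and without library 2 that of Slc1a1 as well. With lane as a covariate 5 transporters were lower, against 15.2% of all tested genes, and Slc3a1 and Slc7a7 did not pass (limma adjusted p = 0.086 and 0.14). The male libraries alone, which are all in lane 2 for these genotypes, gave the same 7 calls against 21.9% of all tested genes, with Slc15a1 at -0.85 and Slc6a19 at -1.06.

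**Figure D3:**
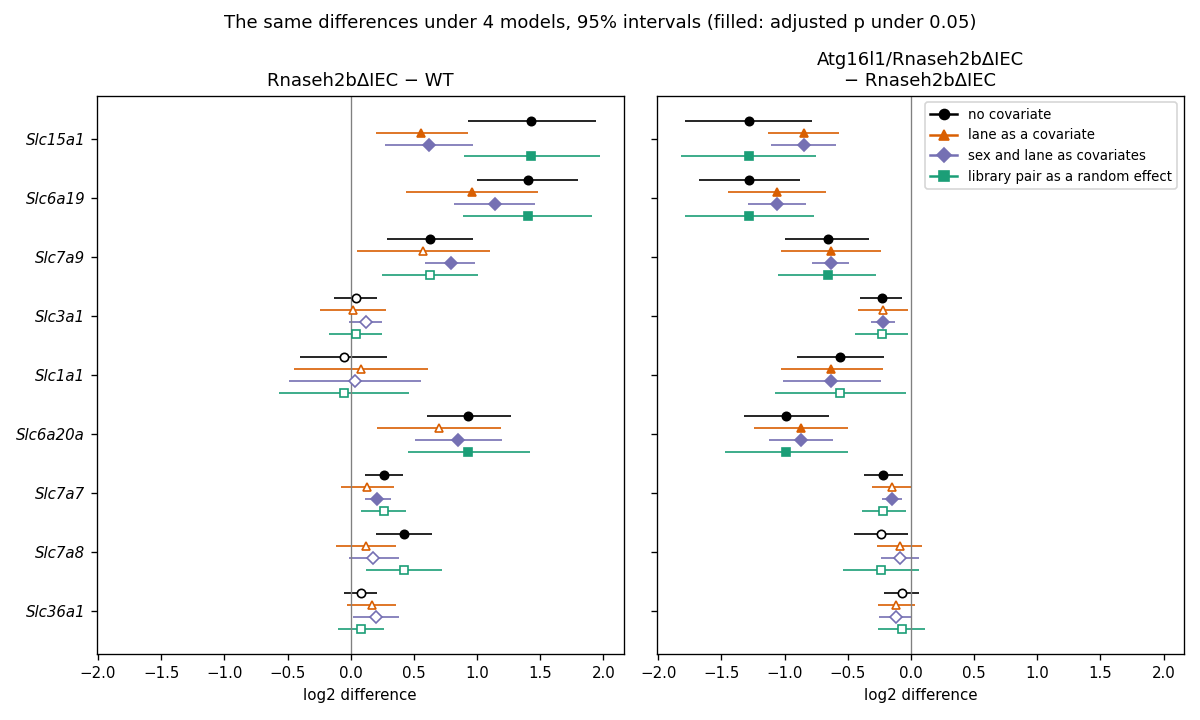
Log2 difference of each transporter with its 95% interval in Rnaseh2bΔIEC against WT and in Atg16l1/Rnaseh2bΔIEC against Rnaseh2bΔIEC organoids under 4 models; filled symbols passed an adjusted p of 0.05. The Slc15a1 difference from WT was 1.43 without a covariate, 0.56 with lane and 0.62 with sex and lane, whereas that of Slc6a19 was 1.40, 0.96 and 1.14.

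Against Atg16l1ΔIEC organoids, 2 of the 9 transporters were lower in Atg16l1/Rnaseh2bΔIEC organoids, against 12.5% of all tested genes. Slc1a1 was lower with a difference of -0.66 (95% interval -0.95 to -0.38, limma adjusted p = 0.0038), as Atg16l1ΔIEC libraries were at 9.64, 9.98, 10.18 and 9.95, above all Atg16l1/Rnaseh2bΔIEC libraries. Slc7a9 had a difference of -0.40 (95% interval -0.68 to -0.13, limma adjusted p = 0.035) with nearest libraries of 10.22 and 10.23, so the groups were barely apart. The other 7 had differences between -0.35 for Slc15a1 and Slc6a19 and 0.04 for Slc3a1. In the same comparison all 6 goblet, 5 of 6 Paneth and 4 of 6 stem cell markers were higher, beside 1616 of all 12802 tested genes. Of the 11 enterocyte markers 4 were lower, with a median difference of -0.52. The part of all these markers was not tested. With sex as a covariate 5 transporters were lower, against 15.9% of all tested genes, and with lane as a covariate 1, against 15.4%, Slc1a1 at -0.73 (limma adjusted p = 0.0059).

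Rnaseh2bΔIEC organoids had higher levels than Atg16l1ΔIEC organoids for 3 of the 9 transporters, against 4.34% of all tested genes. These were Slc15a1 and Slc6a19, each with a difference of 0.93 (limma adjusted p = 0.032 and 0.011), and Slc6a20a, with a difference of 0.65 (limma adjusted p = 0.028). All libraries of both genotypes were in lane 2, and none of these 3 genes overlapped between them, the nearest male Atg16l1ΔIEC library being 8.75 for Slc15a1, 10.97 for Slc6a19 and 8.21 for Slc6a20a. All 11 enterocyte markers had positive differences in this comparison, 3 of them called, with a median of 0.84, and their part was not tested. Without either Rnaseh2bΔIEC library, when a lone library stands for the genotype, the 3 calls were not kept.

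The Rnaseh2b effect was then compared between organoids with and without Atg16l1, as the difference between Atg16l1/Rnaseh2bΔIEC and Atg16l1ΔIEC minus the difference between Rnaseh2bΔIEC and WT. It was lower with Atg16l1 deleted for 7 of the 9 transporters and higher for 0, against 18.1% of all tested genes that were lower. Rnaseh2b RNA itself was at 0.601-fold of WT in Atg16l1/Rnaseh2bΔIEC and at 0.39-fold in Rnaseh2bΔIEC organoids. Atg16l1 RNA was at 0.475-fold of WT in Atg16l1/Rnaseh2bΔIEC and at 0.172-fold in Atg16l1ΔIEC organoids. The part of these unequal levels in the transporter changes was not tested. For Slc15a1 the effect went from 1.43 to -0.35, a change of -1.79 (95% interval -2.43 to -1.14, limma adjusted p = 0.00081). For Slc6a19 it went from 1.40 to -0.35, a change of -1.74 (95% interval -2.26 to -1.23, limma adjusted p = 0.00024). The proline carrier Slc6a20a followed with -1.27 and the cystine exchanger Slc7a9 with -1.04 (limma adjusted p = 0.00055 and 0.0019). For Slc1a1 it was -0.61 and for Slc7a8 -0.60 (limma adjusted p = 0.035 and 0.0035), and for Slc7a7 it was -0.27 (limma adjusted p = 0.031). Slc36a1, at -0.19 (limma adjusted p = 0.085), did not pass. For Slc3a1 the change was -0.00 (95% interval -0.22 to 0.22, limma adjusted p = 1.0). With lane as a covariate only Slc6a19 passed, against 10.6% of all tested genes, at -1.09, and Slc15a1 was at -0.48 (limma adjusted p = 0.16). With sex and lane together 5 passed, against 20.3% of all tested genes that were lower. Slc36a1 was among them, at -0.39, but Slc15a1 was not, at -0.59 (limma adjusted p = 0.066). Slc7a8 and Slc1a1 did not pass either (limma adjusted p = 0.12 and 0.13). Among male libraries alone, where the spread is that within pairs, 8 passed, against 24.2% of all tested genes that were lower. There Slc15a1 was at -1.59 and Slc6a19 at -1.60, with WT in lane 1 and the other genotypes in lane 2.

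Male libraries had higher values than female libraries for 6 of the 9 transporters when sex was fitted together with genotype, against 5.77% of all tested genes. The 6 were Slc6a19, Slc7a9, Slc6a20a, Slc7a8, Slc7a7 and Slc3a1, which were also higher in the male pair of each of the 3 genotypes that had both sexes. The male pair exceeded the female pair of Slc6a19 by 0.29 in WT, 0.44 in Atg16l1ΔIEC and 0.44 in Atg16l1/Rnaseh2bΔIEC organoids, and the fitted difference was 0.39 (95% interval 0.25 to 0.53, limma adjusted p = 0.0031). For Slc7a9 it was 0.31, for Slc6a20a 0.29, for Slc7a8 0.18, for Slc7a7 0.15 and for Slc3a1 0.14 (limma adjusted p = 0.0012 to 0.026). Slc15a1 was lower by 0.13 in the male pair of WT but higher by 0.34 and 0.87 in those of Atg16l1ΔIEC and Atg16l1/Rnaseh2bΔIEC organoids, and its fitted difference of 0.36 did not pass (limma adjusted p = 0.081). Slc1a1 and Slc36a1 had no common sign over the genotypes. Within each genotype sex and library pair are the same split and cannot be told apart.

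In Atg16l1/Rnaseh2bΔIEC organoids that split is also the lane. Libraries 1 and 2 were higher than libraries 3 and 4 in 2 of the 9 transporters, against 5.92% of all tested genes, namely Slc15a1 by 0.87 (95% interval 0.59 to 1.15, limma adjusted p = 0.0015) and Slc7a8 by 0.30 (95% interval 0.12 to 0.48, limma adjusted p = 0.033). For the other 7 the difference was between -0.13 and 0.44 and did not pass. Lane, sex and library pair cannot be told apart here.

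**Figure D4:**
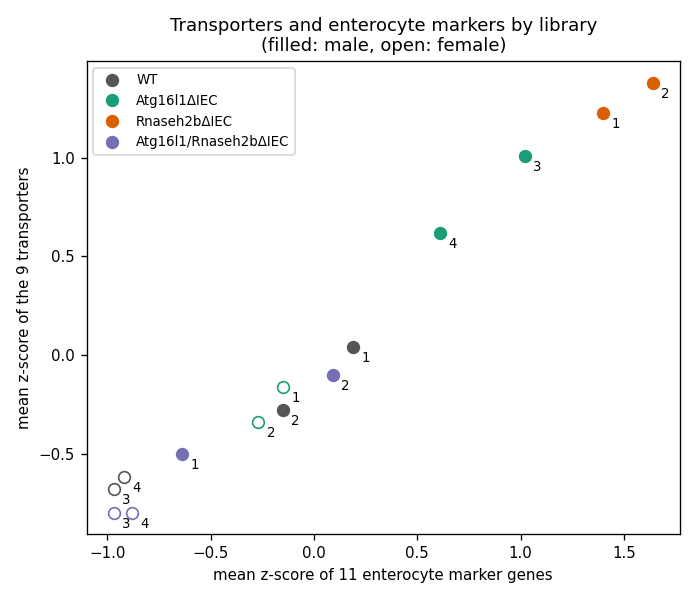
Mean z-score of the 9 transporters (vertical axis) against that of 11 enterocyte markers (horizontal axis) in each of the 14 libraries; numbers are library numbers, filled points male and open points female libraries. The Rnaseh2bΔIEC libraries stood highest on both axes, at 1.23 and 1.38 for the transporters, followed by the male Atg16l1ΔIEC libraries 3 and 4 at 1.01 and 0.62, and on the vertical axis the female Atg16l1/Rnaseh2bΔIEC libraries were lowest, at -0.80, which on the horizontal axis, at -0.97 and -0.88, lay with the female WT libraries.

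The stoichiometry of the cystine exchanger was followed as the difference of its partners' log2 values within a library, with exact two-sided permutation tests that were chosen after the values were seen. They were 5 of 10 such tests run, p-values were adjusted over all 10, and none passed after adjustment. Slc7a9 minus Slc3a1 was -1.68, -1.64, -1.94 and -1.81 in WT, -1.30, -1.28, -1.0 and -1.08 in Atg16l1ΔIEC, -1.19 and -1.17 in Rnaseh2bΔIEC, and -1.71, -1.47, -1.60 and -1.65 in Atg16l1/Rnaseh2bΔIEC organoids. All Atg16l1ΔIEC libraries were above all WT libraries, by 0.61 on average (exact permutation p = 0.029, the smallest possible with 4 against 4, adjusted p = 0.057). In Rnaseh2bΔIEC the difference from WT was 0.59 (exact permutation p = 0.067, the smallest possible with 2 against 4, adjusted p = 0.083), and in Atg16l1/Rnaseh2bΔIEC organoids it was 0.16 with overlapping libraries (exact permutation p = 0.14, adjusted p = 0.16). Atg16l1/Rnaseh2bΔIEC libraries were all below Atg16l1ΔIEC libraries, with a difference of -0.45 (exact permutation p = 0.029, adjusted p = 0.057), and all below Rnaseh2bΔIEC libraries, with a difference of -0.43 (exact permutation p = 0.067, adjusted p = 0.083).

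Among all tested genes 14.4% were higher in Rnaseh2bΔIEC than in WT organoids. Of the 8 genes listed as partners of the transporters or as keepers of the ion gradients that drive them, 4 were higher and 0 lower there. These were the scaffold genes Pdzk1 (0.84, limma adjusted p = 0.027) and Slc9a3r1 (0.57, limma adjusted p = 1.2e-05), the sodium-proton exchanger Slc9a3 (0.95, limma adjusted p = 0.016) and Cltrn, a kidney partner of B0AT1 that was near the floor here (0.14, limma adjusted p = 0.042). Slc3a2, the heavy chain shared by Slc7a7 and Slc7a8, had a difference of -0.03 (limma adjusted p = 0.82). The sodium pump subunit Atp1b1 had a difference of 0.02 (limma adjusted p = 0.92). In Atg16l1/Rnaseh2bΔIEC against WT organoids 4 were lower, among them Pdzk1 (-0.86) and Atp1b1 (-0.29), and 1 was higher, Slc9a3r1 (0.14; limma adjusted p = 0.016, 0.034 and 0.028). Of all 12802 tested genes, 8.01% were lower and 1037 genes higher in that comparison. Against Rnaseh2bΔIEC organoids 5 of the 8 were lower and 0 higher, beside 14.4% of all tested genes that were lower.

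**Figure D5:**
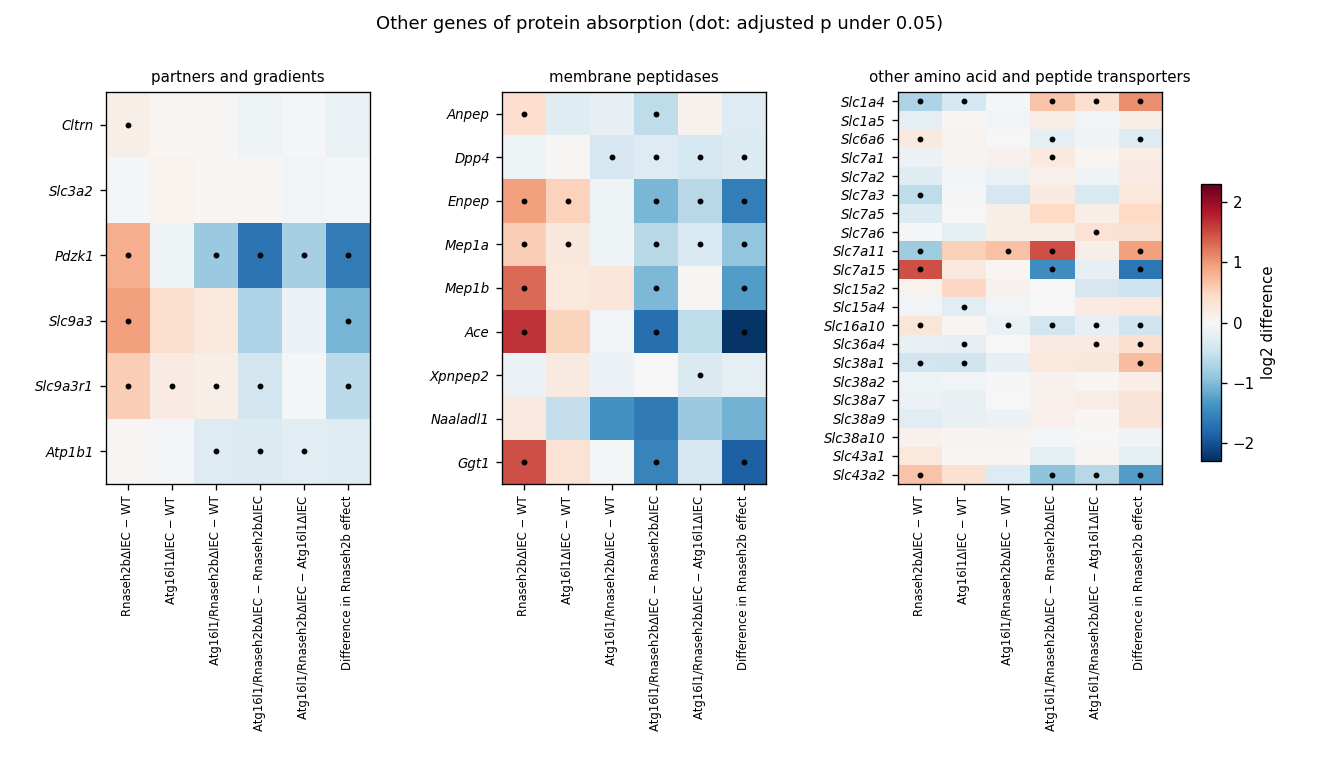
Log2 difference (colour, red higher and blue lower) of 6 of the 8 partner and gradient genes and of the tested membrane peptidases and other amino acid and peptide transporters in the comparisons named below each column; a dot marks an adjusted p under 0.05. In Rnaseh2bΔIEC against WT, Ace (1.67), Ggt1 (1.49) and Slc7a15 (1.49) were higher, while Slc7a11 (-0.81) was lower.

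Membrane peptidases, which release the substrates of the transporters from larger peptides at the brush border, were listed with 11 genes, of which 9 could be tested. In Rnaseh2bΔIEC organoids 6 of the 9 were higher than in WT and 0 lower, led by Ace (1.67), Ggt1 (1.49) and Mep1b (1.30; limma adjusted p = 0.0019, 0.00094 and 8.3e-05). In Atg16l1ΔIEC organoids 2 were higher, Enpep (0.53) and Mep1a (0.26; limma adjusted p = 0.004 and 0.026). In Atg16l1/Rnaseh2bΔIEC organoids 1 differed from WT, Dpp4, the dipeptidyl peptidase, which was lower (-0.38, limma adjusted p = 0.0012). Against Rnaseh2bΔIEC organoids 7 of the 9 were lower and 0 higher, with Ace at -1.74, Ggt1 at -1.53 and Enpep at -1.06 (limma adjusted p = 0.0018, 0.001 and 0.00026). The median difference of the peptidases was 0.56 in Rnaseh2bΔIEC against WT, 0.25 in Atg16l1ΔIEC against WT and -0.11 in Atg16l1/Rnaseh2bΔIEC against WT, beside 0.42, 0.29 and 0.01 for the transporters. Of all tested genes, 14.4% were higher in Rnaseh2bΔIEC and 8.73% in Atg16l1ΔIEC than in WT organoids. In Atg16l1/Rnaseh2bΔIEC organoids 8.01% were lower than in WT and 14.4% lower than in Rnaseh2bΔIEC organoids.

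The other amino acid and peptide transporters, many of which are not specific to absorptive cells, were not shifted in a common direction. In Rnaseh2bΔIEC against WT organoids, 1848 of all 12802 tested genes were higher and 1576 lower. Of the 31 transporters listed here, 21 could be tested, of which 4 were higher and 4 lower in that comparison, with a median difference of -0.13. Higher were, among others, Slc7a15 (1.49, limma adjusted p = 0.00035), Slc43a2, a neutral amino acid uniporter (0.65, limma adjusted p = 0.022), and the basolateral aromatic amino acid carrier Slc16a10 (0.27, limma adjusted p = 0.0053). Lower were, among others, the cystine-glutamate antiporter Slc7a11 (-0.81), the neutral amino acid exchanger Slc1a4 (-0.71) and the cationic amino acid carrier Slc7a3 (-0.59; limma adjusted p = 0.016, 0.0048 and 0.017). In Atg16l1/Rnaseh2bΔIEC organoids Slc7a11 was higher than in WT (0.68, limma adjusted p = 0.024) and than in Rnaseh2bΔIEC organoids (1.49, limma adjusted p = 0.00078), opposite to the 7 absorptive transporters that were lower in the latter comparison. In Atg16l1ΔIEC against WT organoids 0 were higher and 4 lower, among them Slc38a1 (-0.45), Slc1a4 (-0.41) and Slc15a4 (-0.24; limma adjusted p = 0.023, 0.034 and 0.049). Of all tested genes 8.73% were higher and 10.4% lower in that comparison.

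Of all 12802 tested genes, 1848 were higher and 1576 lower in Rnaseh2bΔIEC than in WT organoids. Among 13 listed regulators of enterocyte genes and of the amino acid response, 3 were higher and 3 lower there. The higher were Creb3l3 (1.35), Hnf4g (0.55) and Ppara (0.34; limma adjusted p = 0.016, 0.0035 and 0.043). The lower were Ddit3 (-0.93), Klf4 (-0.57) and Atf4 (-0.20; limma adjusted p = 0.0012, 0.0061 and 0.022), of which Atf4 and Ddit3 belong to the amino acid and stress response. Creb3l3 (-1.51), Hnf4g (-0.67) and Ppara (-0.40) were lower in Atg16l1/Rnaseh2bΔIEC than in Rnaseh2bΔIEC organoids (limma adjusted p = 0.01, 0.0013 and 0.022). In Atg16l1ΔIEC against WT organoids 0 regulators were higher and 3 lower, Ddit3 (-0.73), Klf4 (-0.46) and Cdx2 (-0.14; limma adjusted p = 0.0019, 0.0085 and 0.0059). The shares of all tested genes were 8.73% higher and 10.4% lower.

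As a description over the 14 libraries, which share genotype, sex and lane, the highest correlations among the transporters were between brush border carriers. Slc6a19 and Slc6a20a had a Pearson correlation of 0.96, Slc15a1 and Slc6a19 of 0.94, and Slc7a9 and Slc6a20a of 0.92. The heterodimer partners Slc7a9 and Slc3a1 had one of 0.36, whereas the basolateral Slc7a7 and Slc7a8 had 0.72. Slc7a7 was more like the brush border genes Slc6a19 (0.89), Slc6a20a (0.87), Slc7a9 (0.83) and Slc15a1 (0.80) than like Slc7a8. Slc1a1 had no correlation above 0.54 with any other transporter, that being with Slc36a1, and Slc3a1 none above 0.50, that being with Slc7a7. The genes of the whole table most like the mean z-score of the transporters were Pbld2 (0.986), Mro (0.985), Acsm5 (0.984), Slc2a7 (0.983) and Il18 (0.982). The most like 8 of the transporters were Ace for Slc15a1 (0.983), the fatty acid binding protein gene Fabp2 for Slc6a19 (0.988), Btnl6 for Slc7a9 (0.984), Vat1 for Slc6a20a (0.983), Mpst for Slc1a1 (0.966), Acaa1a for Slc7a7 (0.952), Tmem206 for Slc3a1 (0.931) and Rufy2 for Slc36a1 (0.921).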

How the data were processed

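Total RNA of small intestinal organoids (4 WT, 4 Atg16l1ΔIEC, 2 Rnaseh2bΔIEC and 4 Atg16l1/Rnaseh2bΔIEC) was sequenced as stranded mRNA libraries. Per the labels and methods, the authors used cutadapt for trimming, TopHat2 for alignment (GRCm38), HTSeq for gene counts and DESeq2 (versions not given in the sources used here), and left out 2 further Rnaseh2bΔIEC samples for their read counts. The authors deposited 18781 genes as log2 values from -2.13 to 17.45 with library medians of 7.57 to 7.65. The transformation is not named, whole reads could not be recovered, and no count model was run. Gene symbols came from GENCODE M21 (99.68% of identifiers matched).

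Genes averaging 3.32 or more (10 on the linear scale) were fitted with limma 3.58.1 in R 4.3.3 (mean trend, all 14 libraries, 1 mean per genotype, no covariate, Benjamini-Hochberg adjustment at 0.05). No pseudocount was added in this fit. The code was tested on simulated data in which all libraries varied independently, so that test does not cover library pairs that deviate together. Members and gene lists were chosen with earlier results of these data known. Named were the 9 transporters, the targeted genes, the partner and gradient genes, the 3 largest rises and falls past the threshold in each other list and comparison, and the genes most correlated with the transporters. Some results that this rule names are not reported here. Alternatives were lane as a covariate, replicate number as a block, library pairs averaged or as a random effect, fits of only the genotypes compared, pseudocounts of 1 and 5, no floor or one of 50, median centring, robust variance, fits within a lane and leaving out each library. Sex covariates, male libraries alone, the Atg16l1/Rnaseh2bΔIEC libraries by lane, the motif search and the partner ratios were added after the values were seen. Sex was read from Xist and Ddx3y. Figures were drawn with matplotlib 3.10.9.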

Additional observations from a re-analysis of the deposited data

Results flagged for a closer look

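The effect of Rnaseh2b deletion differed between organoids with and without Atg16l1 for 7 of the 9 transporters, by the limma test of that difference, all lower with Atg16l1 deleted, against 18.1% of all tested genes. Its change, with Atg16l1 deleted minus without, was -1.79 for Slc15a1, -1.74 for Slc6a19, -1.27 for Slc6a20a, -1.04 for Slc7a9, -0.61 for Slc1a1, -0.60 for Slc7a8 and -0.27 for Slc7a7. With lane as a covariate only Slc6a19 passed, and Slc15a1 was at -0.48 (limma adjusted p = 0.16). The 11 enterocyte markers had a median change of -1.74, with 10 lower, and the part of these markers in the transporter values was not tested. Rnaseh2b RNA was at 0.601-fold of WT in Atg16l1/Rnaseh2bΔIEC and at 0.39-fold in Rnaseh2bΔIEC organoids, and its part was not tested either. In 27 groups of 4 libraries, 3 genotypes for each transporter, 0 had a library far enough from the others to stand out by Dixon's criterion. As libraries 1 and 2, and 3 and 4, deviated together, this criterion could hardly single out a library.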

How the results depend on the processing

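Of the 63 differences of transporters (9 genes in 7 comparisons) 29 passed the threshold, 0 of these changed sign in 28 to 31 alternatives, 0 passed in all, and 6 were lost only when library pairs were averaged. Of the calls, 13 were kept with lane, 12 with library pairs as a random effect (within-pair correlation 0.65), 28 with sex, 22 with sex and lane and 29 among male libraries. Among the male libraries only those of WT are in lane 1. Counts are given in the order Rnaseh2bΔIEC against WT, Atg16l1ΔIEC against WT, Atg16l1/Rnaseh2bΔIEC against WT, against Rnaseh2bΔIEC and against Atg16l1ΔIEC, Rnaseh2bΔIEC against Atg16l1ΔIEC, and the difference in Rnaseh2b effect, where the reported counts were 6, 3, 1, 7, 2, 3 and 7. With averaged pairs only 1 or 2 values per genotype remained, the reported calls were not kept, and few genes of the whole table were called. The random effect gave 3, 0, 0, 4, 0 and 0 in the former 6. Lane as a covariate gave 2 and 0 in the former pair, 1 in the fifth and 1 in the last. Sex gave 6, 3, 5 and 5 and male libraries 7, 5, 5 and 5 in the second, the third, the fifth and the sixth, and sex and lane 5 and 5 in the fifth and the sixth. In the fifth, no floor and the fit within 1 lane gave 1, and Atg16l1/Rnaseh2bΔIEC libraries of lane 1 gave 5 and of lane 2 gave 1. Those of lane 2 gave 3 against WT. Leaving out 1 library gave 3 to 6, 1 to 4, 1 to 2, 3 to 7, 1 to 5, 0 to 4 and 5 to 7, with the low of 1 in the second without WT library 2 and the 2 in the third without WT library 4.

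Replicate numbers did not pair the genotypes: same-numbered libraries of different genotypes had correlations of -0.41 to 0.46 (18 pairs), against 0.31 to 0.85 for libraries 1 and 2 or 3 and 4 of a genotype (6 pairs). With replicate number as a replicate block 20 calls were kept, with 1 in the fifth comparison and 0 in the sixth, and the uncalled values changed sign to 0.08 (Slc1a1 against WT), 0.03 (Slc1a1) and 0.02 (Slc36a1) against Atg16l1ΔIEC in Rnaseh2bΔIEC, and 0.01 (Slc3a1, difference in effect).

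Of all uncalled differences 18 changed sign in some alternative, those with the replicate block included. In Atg16l1ΔIEC against WT, Slc15a1 was -0.37 with lane and -0.26 with sex and lane, and Slc7a7 -0.07 with lane. In Atg16l1/Rnaseh2bΔIEC against WT, with lane, within lane 1 or with only lane 1 libraries, Slc15a1 was -0.28, Slc6a19 -0.10 and Slc7a7 -0.02, and with sex and lane Slc15a1 was -0.23 and Slc7a9 0.15. With only lane 2 libraries Slc6a20a was 0.07 and Slc36a1 -0.04, and among males Slc36a1 was -0.02. Against Atg16l1ΔIEC, with lane, within lane 2 or with only lane 2 libraries, Slc15a1 was 0.08 and Slc7a7 0.05, with sex and lane Slc15a1 was 0.03 and Slc3a1 -0.05, and among males Slc3a1 was -0.04. In Rnaseh2bΔIEC against WT, Slc3a1 was -0.03 with sex and -0.07 among males, and Slc1a1 0.08 with lane, 0.03 with sex and lane and 0.16 among males. Against Atg16l1ΔIEC, Slc7a8 was -0.03 with sex, -0.00 with sex and lane and -0.01 among males. The Slc3a1 difference in effect was 0.03 with lane, 0.01 with only lane 2 libraries, 0.07 with sex and 0.03 among males. Leaving out 1 library gave, against WT in Atg16l1/Rnaseh2bΔIEC, -0.02 to 0.29 (Slc15a1), -0.01 to 0.02 (Slc36a1), -0.16 to 0.04 (Slc6a20a) and -0.11 to 0.05 (Slc7a9), in Rnaseh2bΔIEC -0.20 to 0.09 (Slc1a1) and -0.01 to 0.10 (Slc3a1), and in Atg16l1ΔIEC -0.04 to 0.15 (Slc1a1). Against Atg16l1ΔIEC it gave -0.25 to 0.04 (Slc1a1), -0.06 to 0.02 (Slc36a1) and -0.01 to 0.09 (Slc7a8) in Rnaseh2bΔIEC and -0.05 to 0.02 (Slc7a7) in Atg16l1/Rnaseh2bΔIEC, and -0.06 to 0.05 for the Slc3a1 difference in effect. The cause of these changes was not tested. Depth is unknown, so its limit on low genes cannot be given.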
